A study of Mus musculus with 24 samples.

Results

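Smarca5 encodes SNF2H, the ATPase of most ISWI chromatin remodelling complexes, and it was described here together with 9 genes named as its closest relatives and partners: Smarca1, Baz1a, Baz1b, Baz2a, Baz2b, Bptf, Cecr2, Rsf1 and Chrac1. The 10 genes were chosen by symbol, and 9 of them had a row among the 16940 genes of the expression table. Smarca1 was not analysed here. All 9 passed the filter for testing, which left 14557 genes.

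RNA was sequenced from mouse oocytes of a B6/129 background in which Snf2h had been deleted (KO, ZP3-Cre with Snf2h(fl/fl)) and from oocytes of the floxed line without the Cre (WT, Snf2h(fl/fl)). ZP3-Cre is a transgene driven by the promoter of a zona pellucida gene, so recombination takes place in the growing oocyte. All WT and KO oocytes carried the floxed alleles, and Cre was present in the KO oocytes only, so an effect of Cre itself cannot be told apart from the loss of Snf2h. Oocytes were collected at 4 stages: growing oocytes of 40 to 45 µm in diameter (GO1), growing oocytes of 50 to 55 µm (GO2), and oocytes above 70 µm that were fully grown, taken from females without hormone stimulation (nFGO) or after it (FGO). Libraries were made from 20 oocytes by cDNA amplification for low input, and there were 2 in each of the 8 groups. The labels do not say that the 2 libraries of a group came from separate animals, so p-values measure the spread between these libraries only. The 4 nFGO libraries are labelled polyA RNA and the other 12 total RNA.

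ISWI remodellers slide and space nucleosomes. The ATPase works with a large partner subunit that sets where the complex goes. Baz1a (ACF1) makes the ACF complex and, with the histone-fold proteins Chrac1 and Pole3, the CHRAC complex. Baz1b (WSTF) makes WICH, Baz2a (TIP5) makes NoRC, which acts on ribosomal DNA, and Rsf1 makes RSF. Bptf is the large subunit of NURF and Cecr2 that of CERF, complexes best known with SMARCA1 (SNF2L), the second ISWI ATPase of mammals.

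Expression is given as RPKM, read counts scaled by gene length and by the total of mapped reads. RPKM totals ran between 832384 and 1011538 per library, and the number of genes at 1 RPKM or more lay between 12613 and 12919. Read depth per library is unknown. The oocyte markers stood high in every library: the 12 markers with a row out of 13 listed (among them Zp3, Gdf9 and Bmp15) summed to between 13360 and 30520 RPKM. Their sum was lower in KO without overlap at GO2 (18530 to 19490 RPKM in KO, 20730 to 21980 RPKM in WT), at nFGO (14380 to 15000 RPKM in KO, 17670 to 18330 RPKM in WT) and at FGO (13360 to 13690 RPKM in KO, 14470 to 19910 RPKM in WT), and the genotypes overlapped at GO1. Of 13 granulosa cell markers only 5 had a row, and they summed to 59.4 to 68.3 RPKM in KO and 36.7 to 39.7 RPKM in WT at nFGO, and to 43.7 to 49.3 RPKM in KO and 33.1 to 40.6 RPKM in WT at FGO. They summed to 23.2 to 28.3 RPKM in KO and 15.5 to 19.5 RPKM in WT at GO2, and to 12.8 to 15.3 RPKM in KO and 18.3 to 20.3 RPKM in WT at GO1. Most of the nFGO and FGO sums was Cyp19a1, at 2.60 to 42.8 RPKM over all libraries. Inha ran from 0 to 12.8 RPKM with its top in KO nFGO replicate 2, and Inhba reached at most 1.94 RPKM. The granulosa sum was thus higher in KO from GO2 on, where most partner differences were found. The single markers did not all go this way at GO2. Cyp19a1 had 11.3 and 15.8 RPKM in KO there, against 5.42 and 2.60 RPKM in WT, and Inhba was also higher in KO. Inha was lower in KO at GO2, at 0.296 and 0.115 RPKM, against 1.197 and 0.772 RPKM in WT. Fshr was also lower in KO there, and Nr5a2 overlapped. The immune marker Cd68, the only one of 6 with a row, had 3.37 to 4.71 RPKM in KO and 1.84 to 2.096 RPKM in WT at nFGO, was also higher in KO without overlap at GO1 (3.73 to 5.65 RPKM in KO, 2.23 to 3.56 RPKM in WT) and GO2 (3.56 to 4.39 RPKM in KO, 3.11 to 3.17 RPKM in WT), and overlapped at FGO. The 3 theca and stroma markers with a row, of 8, summed to less in KO at nFGO (1.05 to 1.29 RPKM in KO, 2.71 to 2.86 RPKM in WT), at FGO (0.569 to 0.649 RPKM in KO, 2.16 to 3.48 RPKM in WT) and at GO2 (0.421 to 0.654 RPKM in KO, 0.882 to 11.9 RPKM in WT). The endothelial marker Tek, the only one of 4 with a row, was higher in KO at GO1 (1.67 to 1.84 RPKM in KO, 1.40 to 1.65 RPKM in WT) and GO2 (2.45 to 3.08 RPKM in KO, 1.24 to 1.39 RPKM in WT) and lower at FGO (1.78 to 1.92 RPKM in KO, 2.01 to 2.47 RPKM in WT). The part of these markers in the results was not tested. RPKM are shares of a library, so less RNA per oocyte and a different make-up of the pool cannot be told apart.

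Smarca5 (ENSMUSG00000031715.14, mm10 chr8:80698507-80739497, minus strand), the targeted gene, was almost lost from KO oocytes at the smallest stage measured and stayed so. At GO1 the KO libraries had 1.61 and 2.06 RPKM, against 40.0 and 43.0 RPKM in WT. At GO2 the values were 2.03 and 0.982 RPKM in KO, against 37.1 and 38.3 RPKM in WT. At nFGO they were 1.32 and 1.17 RPKM in KO, against 45.1 and 48.0 RPKM in WT. Every KO library therefore lay far below every WT library of its stage. At FGO the KO libraries had 0.946 and 0.701 RPKM, against 48.7 and 13.9 RPKM in WT. The WT groups were tight except at FGO, where replicate 2 was the lowest WT library of the series. Mean KO levels were 4.42%, 3.999%, 2.68% and 2.63% of the WT mean at GO1, GO2, nFGO and FGO.

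On the log2(RPKM + 1) scale, which understates changes of genes at low levels, Smarca5 fell in KO at each stage, with differences of -3.91, -3.98, -4.40 and -3.90 at GO1, GO2, nFGO and FGO (SE 0.40 each). The adjusted p-values were 0.000498, 0.000669, 7.81e-05 and 9.41e-05 (limma, Benjamini-Hochberg over all genes). The FGO difference was -4.77 without WT replicate 2 and -3.04 without WT replicate 1, and it passed the test in each case. The difference did not change detectably between FGO and GO1 (0.01 ± 0.56 SE, adjusted p = 0.997). In the authors' deposited table the mean normalized count of Smarca5 was 129 in KO and 3720 in WT at GO1, and 76.5 in KO and 2641 in WT at FGO. The residual reads were not assigned to exons, so it was not tested whether they came from inside or outside the floxed part.

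Within WT, the order of Smarca5 levels was nFGO, GO1, GO2 and FGO, from high to low. The first 3 stages did not overlap each other, at 46.5 ± 2.09, 41.5 ± 2.14 and 37.7 ± 0.81 RPKM (SD, n = 2 each), and the FGO range, from 13.9 to 48.7 RPKM, covered all 3. None of the 3 steps tested in WT (GO2 against GO1, FGO against GO2, FGO against nFGO) passed. Among 31 SNF2 family ATPase genes with a row, Smarca5 ranked 27 in KO and 4 in WT at GO1, 28 in KO and 4 in WT at GO2, 28 in KO and 5 in WT at nFGO, and 29 in KO and 6 in WT at FGO. In WT it stood below Smarca2 (BRM, a BAF complex ATPase, 350.6 RPKM at FGO), Atrx (304.5 RPKM) and Hells (88.8 RPKM) at each stage. At FGO it also stood below Rad54b (46.35 RPKM) and Smarcal1 (31.8 RPKM). Its WT mean there, 31.3 RPKM, came from libraries of 48.7 and 13.9 RPKM. The median of the 31 genes was 8.63 RPKM in KO and 11.8 RPKM in WT at FGO.

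**Figure D1:**
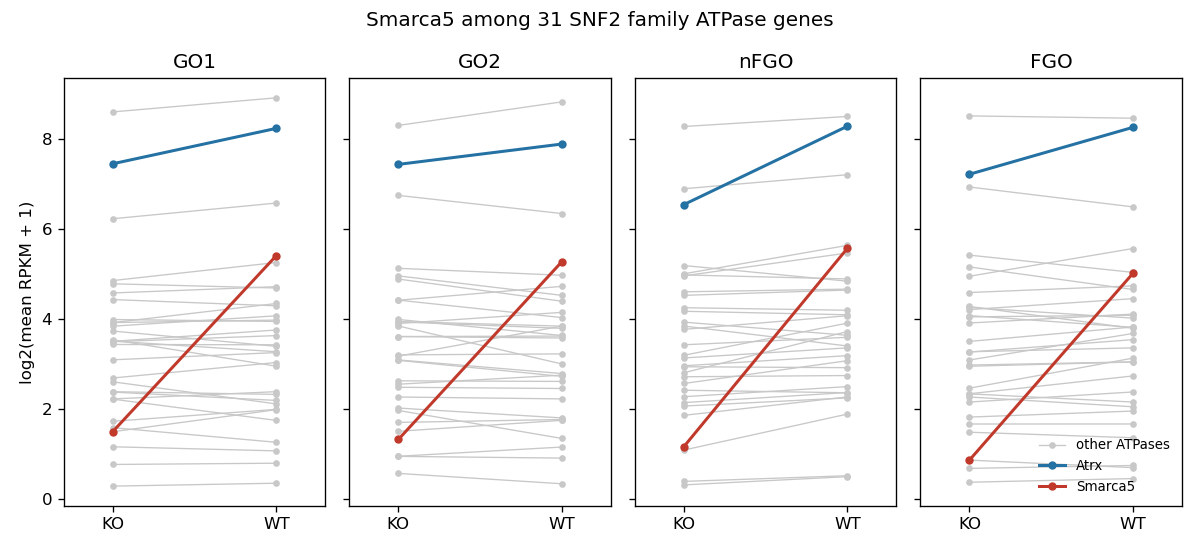
Mean expression of 31 SNF2 family ATPase genes, as log2(mean RPKM + 1) of 2 libraries, in KO (left) and WT (right) oocytes at each stage, 1 line per gene. Smarca5 (red) has rank 29 in KO and rank 6 in WT at FGO, and Atrx (blue) averages 147.4 RPKM in KO and 304.5 RPKM in WT there.

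The genes whose levels were most like those of Smarca5 over the 8 WT libraries, among 9155 genes with a mean of 5 RPKM or more, were Ppp2r5c (a regulatory subunit of protein phosphatase 2A; Pearson r = 0.987), Atxn7 (a SAGA complex subunit; r = 0.957), Gm44988 (r = 0.941), Siah1a (a ubiquitin ligase; r = 0.939) and Gm25397 (r = 0.937). The 8 libraries are pairs from 4 stages, and the ranking rests in part on WT FGO replicate 2. Without it r was 0.937 for Ppp2r5c, 0.68 for Atxn7, 0.758 for Gm44988, -0.0955 for Siah1a and 0.164 for Gm25397. Ppp2r5c had 99.2 and 43.8 RPKM in the WT FGO libraries, with the lower value in the same library as Smarca5.

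Baz1a (ENSMUSG00000035021.13, mm10 chr12:54892989-55014348, minus strand), the ACF subunit, was the only partner whose fall in KO passed the test at a stage. At GO1 it had 41.1 and 35.8 RPKM in KO, against 36.4 and 39.5 RPKM in WT. The genotypes overlapped there. At GO2 it had 32.7 and 33.1 RPKM in KO, against 42.0 and 46.2 RPKM in WT. At nFGO it had 21.01 and 18.1 RPKM in KO, against 33.1 and 29.7 RPKM in WT. At FGO it had 11.7 and 14.4 RPKM in KO, against 28.95 and 31.3 RPKM in WT. From GO2 on, both KO libraries lay below both WT libraries, and at FGO the KO mean was 43.3% of the WT mean. The log2 differences were 0.02 ± 0.13 (SE) at GO1 (adjusted p = 0.952), -0.41 at GO2 (adjusted p = 0.0788), -0.66 at nFGO (adjusted p = 0.00655) and -1.15 at FGO (adjusted p = 2e-04). The nFGO call was lost without KO replicate 2 (adjusted p = 0.0541), without WT replicate 1 (adjusted p = 0.0503) and in a fit of the nFGO libraries alone (adjusted p = 0.0518). The FGO call held with each library left out.

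Chrac1 (ENSMUSG00000068391.8, mm10 chr15:73090392-73097554, plus strand), a histone-fold subunit of CHRAC, went the other way. At GO1 it had 18.9 and 20.3 RPKM in KO, against 14.5 and 15.1 RPKM in WT. At GO2 it had 15.4 and 18.8 RPKM in KO, against 13.5 and 14.5 RPKM in WT. At nFGO it had 9.20 and 5.97 RPKM in KO, against 2.70 and 4.37 RPKM in WT. At FGO it had 10.89 and 10.95 RPKM in KO, against 4.17 and 3.06 RPKM in WT. The KO libraries were higher at each stage without overlap. Chrac1 rose in KO by 0.92 ± 0.22 (SE) at nFGO (adjusted p = 0.0138) and by 1.38 ± 0.22 at FGO (adjusted p = 0.00134), and its differences of 0.38 at GO1 and 0.27 at GO2 did not pass. The nFGO call was lost without KO replicate 1 (adjusted p = 0.128), without WT replicate 1 (adjusted p = 0.110) and in a fit of the nFGO libraries alone (adjusted p = 0.119).

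The other histone-fold subunit, Pole3, which is shared with DNA polymerase epsilon, had 112 and 130.2 RPKM in KO at FGO, against 122 and 124 RPKM in WT. The groups overlapped, and the difference averaged over the stages was -0.06 ± 0.04 (SE, adjusted p = 0.371). In the gene intervals of the expression table, Chrac1 overlaps Ago2 (the Argonaute that carries small RNAs) on the opposite strand. In RefSeq, 0 genes overlapped the Chrac1 interval. Whether counting used the strand is not given in the sources used here. Without strand, reads from the overlap cannot be told apart. Ago2 had 50.5 and 44.5 RPKM in KO at FGO, against 92.6 and 107 RPKM in WT. Its KO libraries lay below its WT libraries at each stage. The part of Ago2 reads in the Chrac1 values was not tested.

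**Figure D2:**
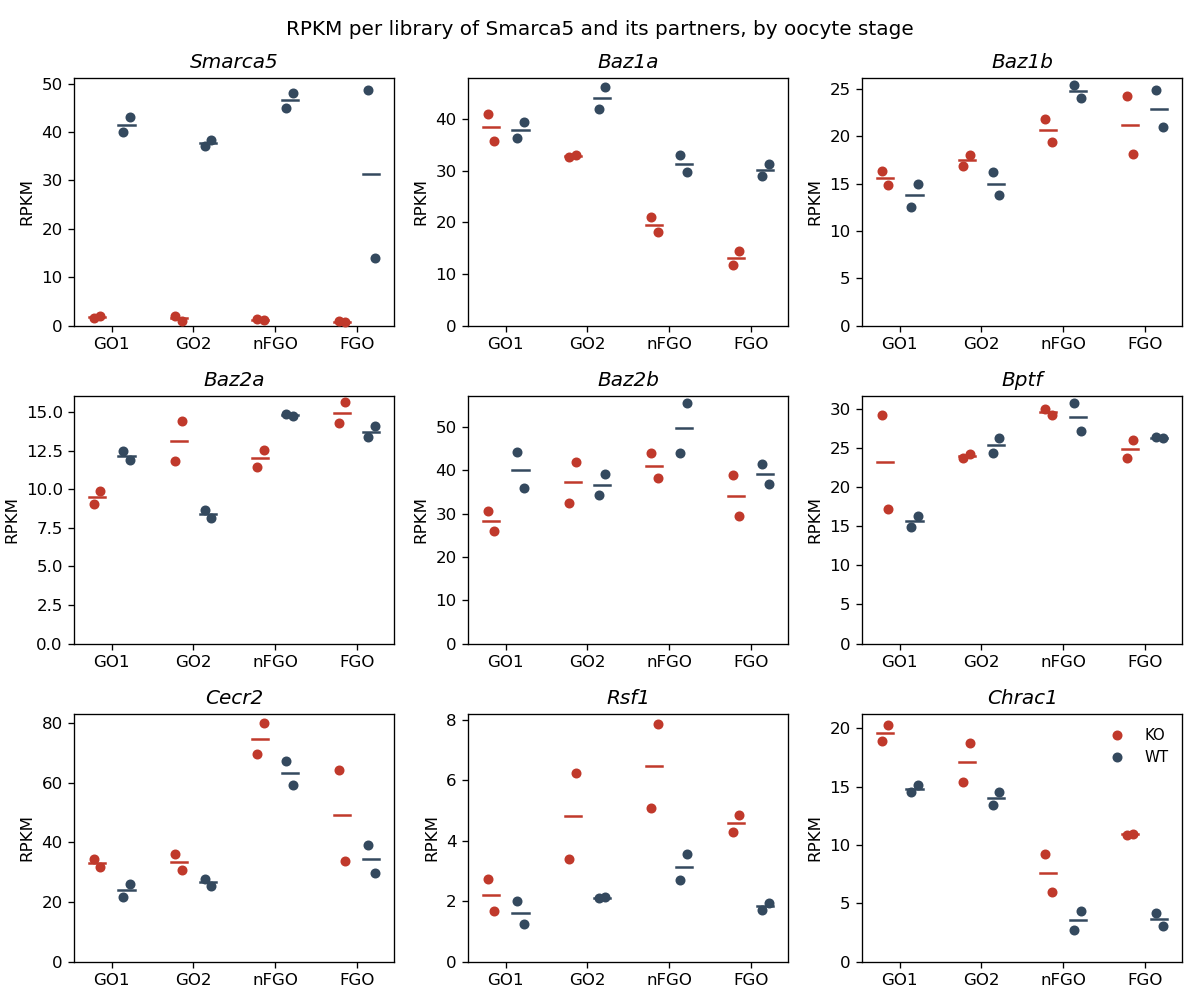
RPKM of the 9 genes in each library by stage, with KO (red) left of WT (dark blue). Points are libraries and bars are means of 2 libraries. Smarca5 is near 0 in KO, Baz1a drops to 13.1 RPKM in KO at FGO against 30.1 RPKM in WT, and Chrac1 averages 10.9 RPKM in KO at FGO against 3.62 RPKM in WT.

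Rsf1 (ENSMUSG00000035623.14, mm10 chr7:97579889-97692778, plus strand), the histone-binding subunit of the RSF complex, was the lowest of the partners and was higher in KO. At GO1 it had 2.73 and 1.67 RPKM in KO, against 1.99 and 1.24 RPKM in WT. At GO2 it had 3.38 and 6.24 RPKM in KO, against 2.097 and 2.12 RPKM in WT. At nFGO it had 5.08 and 7.85 RPKM in KO, against 2.69 and 3.54 RPKM in WT. At FGO it had 4.30 and 4.85 RPKM in KO, against 1.71 and 1.94 RPKM in WT. The genotypes overlapped at GO1 and not at the later stages. Rsf1 rose in KO by 0.98 ± 0.27 (SE) at FGO (adjusted p = 0.0265), while its differences of 0.86 at GO2 (adjusted p = 0.0744) and 0.84 at nFGO (adjusted p = 0.0536) did not pass. The FGO call was lost without any of the 4 FGO libraries in turn (difference from 0.91 to 1.05). Each of these fits left 1 library in a group, and the cause of the loss was not tested. An antisense gene within Rsf1, Rsf1os2, reached at most 0.515 RPKM in any library. In RefSeq, Ywhaq-ps1, Rpl15-ps5 and Rsf1os1 also overlap the Rsf1 interval. They have no row there to read, and their part in the Rsf1 values was not tested.

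Cecr2 (mm10 chr6:120666369-120771190, plus strand), the CERF subunit with a bromodomain, had 34.3 and 31.7 RPKM in KO at GO1, against 21.8 and 26.0 RPKM in WT. At GO2 it had 36.1 and 30.8 RPKM in KO, against 27.8 and 25.4 RPKM in WT. At nFGO it had 69.5 and 80.0 RPKM in KO, against 67.1 and 59.2 RPKM in WT. At FGO it had 64.2 and 33.8 RPKM in KO, against 39.2 and 29.6 RPKM in WT. KO libraries were higher without overlap at the first 3 stages, and the FGO libraries of each genotype overlapped. No stage passed the test by itself, with differences between 0.24 and 0.45.

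The remaining 4 partners differed less in RPKM averaged over the stages. Baz1b (mm10 chr5:135187264-135246129, plus strand), the WICH subunit, had KO means of 15.6, 17.5, 20.6 and 21.2 RPKM at GO1, GO2, nFGO and FGO, against 13.8, 15.0, 24.7 and 22.9 RPKM in WT. Its differences lay between -0.25 and 0.21 and none passed. Baz2b (mm10 chr2:59899363-60209839, minus strand), a bromodomain protein that binds ISWI ATPases, ran from 26.1 to 43.9 RPKM in KO libraries and from 34.2 to 55.6 RPKM in WT libraries, with differences between -0.48 at GO1 and 0.01 at GO2. Bptf (mm10 chr11:107033081-107132127, minus strand), the NURF subunit that reads methylated histone tails, had 29.2 and 17.3 RPKM in KO at GO1, against 14.9 and 16.3 RPKM in WT. The KO libraries of GO1 lay far apart, and at the other stages the Bptf differences were between -0.08 and 0.03. None of the Baz2b and Bptf differences at a stage passed.

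Baz2a (mm10 chr10:128091577-128129303, plus strand), the NoRC subunit, was higher in KO at GO2. At GO1 it had 9.07 and 9.91 RPKM in KO, against 12.5 and 11.9 RPKM in WT. At GO2 it had 11.9 and 14.4 RPKM in KO, against 8.66 and 8.12 RPKM in WT. The genotypes did not overlap at either stage, with the KO libraries below at GO1 and above at GO2. The difference did not pass at GO1 (-0.33 ± 0.13 SE, adjusted p = 0.149) and passed at GO2 (0.59 ± 0.13, adjusted p = 0.0219). The GO2 call was lost without KO replicate 2 (difference 0.45, adjusted p = 0.231), without WT replicate 1 (adjusted p = 0.0752), without WT replicate 2 (adjusted p = 0.134) and in a fit of the GO2 libraries alone (adjusted p = 0.0861). At nFGO and FGO the differences were -0.28 and 0.12 and did not pass.

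**Figure D3:**
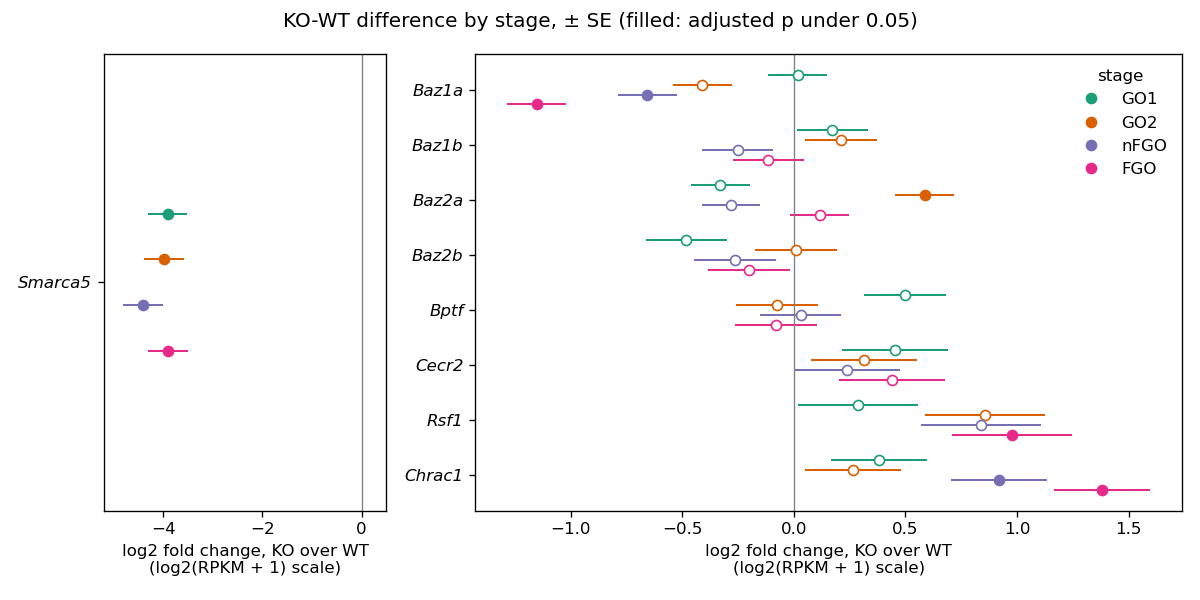
Log2 fold change of KO over WT on the log2(RPKM + 1) scale with its SE, for Smarca5 (left) and the 8 partners (right), 1 point per stage. Filled points passed adjusted p under 0.05. The Baz1a points move left with stage from 0.02 to -1.15, and the Chrac1 points at nFGO and FGO lie at 0.92 and 1.38.

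Counted over the 9 genes, 1 passed at GO1 (Smarca5, lower), against 6.63% of all genes tested. At GO2 2 passed (Smarca5 lower, Baz2a higher), against 7.64%. At nFGO 3 passed (Smarca5 and Baz1a lower, Chrac1 higher), against 16.2%. At FGO 4 passed (Smarca5 and Baz1a lower, Rsf1 and Chrac1 higher), against 17.8%. The targeted gene is 1 of the calls at each stage. The number of all genes called moved with single libraries: at GO1 it was 965 with all libraries, 2741 once replicate 2 of the KO was left out and 231 once replicate 1 of the WT was. At GO2 it was 1112 with all libraries and 61 once replicate 2 of the KO was left out. KO and WT libraries did not overlap for 6, 8, 8 and 6 of the 9 genes at GO1, GO2, nFGO and FGO, where the shares among all genes tested were 50.3%, 60.5%, 61.3% and 59.9%. As shares of the 9 genes these were 66.7%, 88.9%, 88.9% and 66.7%, with Smarca5 among them at each stage.

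Averaged over the 4 stages, 5 of the 9 genes passed, against 33% of all genes tested. Smarca5 fell by 4.05 ± 0.20 (SE, adjusted p = 2.12e-07) and Baz1a by 0.55 ± 0.07 (adjusted p = 9.19e-05). Chrac1 rose by 0.74 ± 0.11 (adjusted p = 0.000346), Rsf1 by 0.74 ± 0.14 (adjusted p = 0.00141) and Cecr2 by 0.36 ± 0.12 (adjusted p = 0.0341). Smarca5, Chrac1, Rsf1 and Cecr2 kept 1 direction at all 4 stages and Baz1a at 3. Genotype labels were also permuted within each stage in all 1296 ways, with exact p-values not adjusted for the number of genes. The two-sided exact permutation p was 0.00154 for Smarca5 and Chrac1, the smallest this design can give. It was 0.00309 for Rsf1, 0.00617 for Baz1a and 0.00772 for Cecr2. The Cecr2 call of the model was lost with any of 8 of the 16 libraries left out (difference from 0.25 to 0.48 over all 16 fits). It was also lost in the average of GO1, GO2 and FGO only (0.40, limma adjusted p = 0.0806). Baz2b averaged -0.23 ± 0.09 (limma p = 0.0253 unadjusted and 0.0692 adjusted, exact permutation p = 0.0432 unadjusted). Bptf averaged 0.09 ± 0.09, Baz2a 0.02 ± 0.07 and Baz1b 0.00 ± 0.08. Bptf was 0.18 and passed without KO GO1 replicate 2 (adjusted p = 0.0209).

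The median difference of the 8 partners was 0.02 at FGO and 0.06 averaged over the stages, beside medians of -0.01 over all genes tested in each comparison. Some partners were higher and others lower in each.

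The authors' deposited table also gives a mean normalized count for each group, and the ratio of these counts was set beside the ratio of mean RPKM. The table's log2 fold change for Chrac1 was 1.03 at nFGO and 1.54 at FGO, where the RPKM ratio gave 1.10 and 1.60. For Rsf1 the authors' deposited table gave 1.18 at GO2 and 1.338 at FGO, where RPKM gave 1.19 and 1.32. For Baz1a the authors' deposited table gave -0.28, -0.32 and -0.58 at GO2, nFGO and FGO, where RPKM gave -0.42, -0.68 and -1.21. Rsf1 at GO1 was 0.97 in the authors' deposited table and 0.45 by RPKM. The direction was the same for all 3 genes at these stages, and the size was close for Chrac1 and, after GO1, for Rsf1, but not for Baz1a. At FGO the mean count of Baz1a in the authors' deposited table was 874 in KO and 1304 in WT, or 0.670 of the WT mean, where RPKM gave 0.433. The gap for Baz1a at FGO (0.63 on the log2 scale) was larger than that of 98.6% of 9180 genes with a mean of 5 RPKM or more. The cause was not tested. For Baz2a at GO2 the RPKM ratio was 0.65, where the authors' deposited table gave 0.38. For Baz2b at FGO it was -0.20, where the authors' deposited table gave -0.55. At GO1, GO2 and nFGO the counts gave Baz2b -0.52, -0.10 and -0.40, so by counts Baz2b was lower in KO at each stage.

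**Figure D4:**
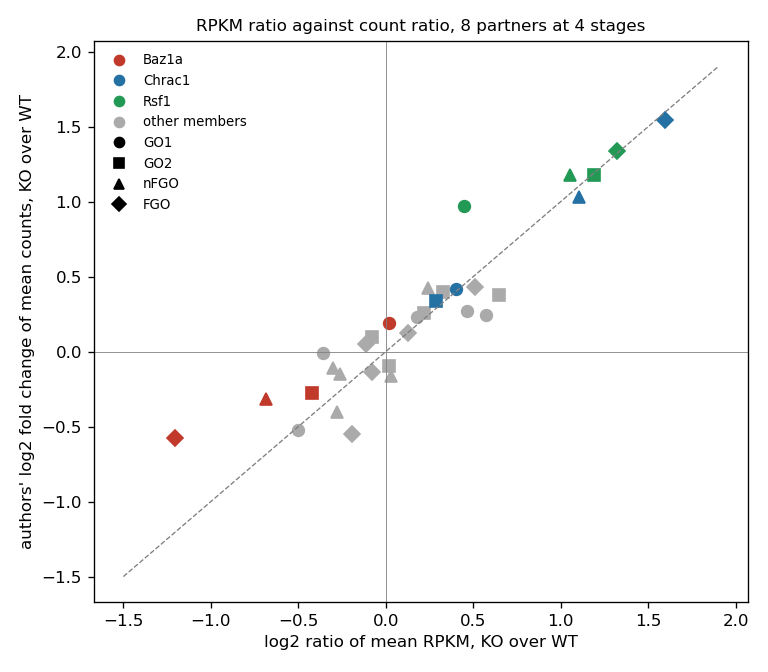
Log2 fold change of KO over WT from the authors' mean counts (vertical) against the log2 ratio of mean RPKM (horizontal) for the 8 partners at 4 stages, with the line of equal values dashed. Chrac1 (blue) at nFGO and FGO and Rsf1 (green) at GO2 and FGO lie close to the line, and Baz1a (red) at FGO lies above it, at -0.58 by counts and -1.21 by RPKM.

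Levels were also compared between stages within each genotype. From GO2 to FGO in WT, a step in which growth and hormone stimulation cannot be told apart, 4 of the 9 genes passed, against 48.4% of all genes tested, so the count was near the background. Chrac1 fell by 1.71 ± 0.22 (SE, adjusted p = 5.44e-05) and Baz1a by 0.54 ± 0.13 (adjusted p = 0.00523). Baz2a rose by 0.65 ± 0.13 (adjusted p = 0.00152) and Baz1b by 0.58 ± 0.16 (adjusted p = 0.0102). The Baz1b call was lost without WT FGO replicate 1 (adjusted p = 0.0828) or WT GO2 replicate 2 (adjusted p = 0.0860). Chrac1 averaged 3.62 ± 0.781 RPKM at FGO and 13.99 ± 0.761 RPKM at GO2 in WT (SD, n = 2 each).

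In KO, 2 of the 9 genes passed from GO2 to FGO, against 41.7% of all genes tested. Baz1a fell by 1.28 ± 0.13 (SE, adjusted p = 1.99e-05), and the 4 KO stages ran GO1, GO2, nFGO, FGO from high to low with no overlap between neighbours. In WT the Baz1a order was GO2, GO1, nFGO and FGO, and the last pair overlapped. Chrac1 fell by 0.60 ± 0.22 in KO (adjusted p = 0.0428), a call lost without either KO FGO replicate (adjusted p = 0.127 and 0.124), without either KO GO2 replicate (adjusted p = 0.0639 and 0.221) and without any of the 4 WT GO1 and GO2 libraries (adjusted p from 0.0551 to 0.0561). Its mean at FGO was 10.9 ± 0.0441 RPKM in KO, against 17.1 ± 2.37 RPKM at GO2 (SD, n = 2 each). In both genotypes Chrac1 ran GO1, GO2, FGO and nFGO from high to low, and the last pair overlapped in WT only.

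The earlier step, GO1 to GO2, held fewer calls. In WT 2 of the 9 genes passed, against 7.55% of all genes tested: Bptf rose by 0.66 ± 0.18 (SE, adjusted p = 0.0479) and Baz2a fell by 0.49 ± 0.13 (adjusted p = 0.0432). The calls of Bptf and Baz2a were each lost with 14 of the 16 libraries left out in turn, with adjusted p up to 0.204 and 0.186. In KO 0 of the 9 passed in limma, against 9.5% of all genes tested, and 2 (Baz2a and Rsf1) had an unadjusted p under 0.05. Between the fully grown stages, FGO against nFGO, 0 of the 9 passed in limma in WT, against 2.69% of all genes tested, and 1 had an unadjusted p under 0.05. This was Cecr2, whose difference was -0.87 ± 0.24 (adjusted p = 0.0831). In KO 1 of 9 passed, against 4.23% of all genes tested: Baz1a fell by 0.55 ± 0.13 at FGO relative to nFGO (adjusted p = 0.0375), a call lost with any of 12 libraries left out (adjusted p up to 0.185). Differences between nFGO and other stages may hold the difference in RNA label, and the 2 cannot be told apart.

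Since Baz1b and Baz2a were the 2 genes that rose from GO2 to FGO in WT and they have an entry in the RefSeq promoter table (GRCm38.p6), the 250 bases before their annotated starts are shown, with matches to GGGCGG and CCAAT, on either strand, in capitals. The windows are chr5:135187073-135187322 for Baz1b and chr10:128092533-128092782 for Baz2a, each on the plus strand. The Baz2a window lies inside the gene interval of the expression table, and the end of the Baz1b window overlaps the start of its interval.
Baz1b: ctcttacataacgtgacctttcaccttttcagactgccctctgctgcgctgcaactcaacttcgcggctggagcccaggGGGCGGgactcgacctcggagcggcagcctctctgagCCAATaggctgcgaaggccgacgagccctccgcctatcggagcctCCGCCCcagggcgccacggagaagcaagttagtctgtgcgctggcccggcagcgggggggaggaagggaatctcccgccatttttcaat
Baz2a: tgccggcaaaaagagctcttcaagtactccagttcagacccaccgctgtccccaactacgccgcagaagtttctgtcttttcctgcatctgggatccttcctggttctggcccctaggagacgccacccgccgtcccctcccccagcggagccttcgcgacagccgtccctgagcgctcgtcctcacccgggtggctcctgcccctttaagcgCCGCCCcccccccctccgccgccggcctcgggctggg
The Baz1b window held 2 matches to GGGCGG (the GC box core) and 1 to CCAAT, and the Baz2a window 1 to GGGCGG and 0 to CCAAT. Over 32851 promoter windows of the same length, 32.7% held GGGCGG and 33.8% held CCAAT. Neither window held CACGTG or TATAAA, which 6.02% and 12.4% of all windows held. Each window had 20 CG dinucleotides, where the median of all windows was 6. Of the other genes with an entry, the Smarca5 window had 29, the Bptf window 34, the Smarca1 window 6 and the Baz2b window 4. The Baz2b window held 1 CCAAT and 1 TATAAA, and like that of Baz2a it lies inside the gene interval of the expression table. These matches describe the letters of the windows only.

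Whether the KO effect changed with stage was tested directly. For FGO relative to GO1, 1 of 9 passed, against 3.48% of all genes tested. Baz1a had a KO effect lower by 1.17 ± 0.19 (SE) at FGO than at GO1, written as -1.17 on the log2 scale (adjusted p = 0.00842). The difference passed with each library left out (adjusted p up to 0.0412) and was lost in a fit of only the compared groups (adjusted p = 0.0817). The same difference for Chrac1 was 0.999 ± 0.31 (adjusted p = 0.0967). For GO2 relative to GO1, 1 of 9 passed, against 4% of all genes tested. Baz2a had a KO effect 0.92 ± 0.19 higher at GO2 than at GO1 (adjusted p = 0.0247), and this call was lost with any of 6 libraries left out (adjusted p up to 0.132), with a replicate block (adjusted p = 0.0762) and in a fit of only the compared groups (adjusted p = 0.105). The authors' deposited table gave log2 fold changes of 0.38 at GO2 and -0.01 at GO1 for Baz2a. For Baz1a it gave -0.58 at FGO and 0.19 at GO1.

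Other genes of the same pathways were read from 4 lists. Of 5 further ISWI complex subunits, averaged over the stages, 1 was higher and 1 lower in KO, beside 33% of all genes tested, with a list median of -0.06. The gene listed as 0610010K14Rik (Bap18, a BPTF-associated protein) rose by 0.35 ± 0.04 (SE, adjusted p = 9.14e-05) and had 347.9 and 331.7 RPKM in KO at FGO, against 244 and 272 RPKM in WT. Hmgxb4, a NURF-associated HMG-box protein, fell by 0.46 ± 0.14 (adjusted p = 0.0208), with libraries that overlapped at GO1 and GO2. The histone chaperones Rbbp4 and Rbbp7 had differences of -0.06 and -0.10 that did not pass. Of 6 partners of Baz1b in the B-WICH complex, 1 was higher and 0 lower in limma, and 0 were lower at an unadjusted p under 0.05, beside 33% of all genes called in this comparison. The higher one was Ercc6, the repair ATPase CSB, which rose by 0.51 ± 0.12 (adjusted p = 0.00782). Of 11 recruiters and partners of SNF2H, 0 passed averaged over the stages in limma, beside 33% of all genes tested, and 3 (Chd4, Hdac2 and Smc3) had an unadjusted p under 0.05. Their list median was 0.08.

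Of 29 other SNF2 family ATPases tested, 3 were higher and 6 lower in KO averaged over the stages, beside 33% of all genes tested, so the number called was near the background. Their median was -0.08, beside -0.01 over all genes. Atrx, the ATPase of a histone H3.3 deposition complex at heterochromatin, fell by 1.005 ± 0.05 (SE, adjusted p = 3.18e-07). It had 147.9 and 146.9 RPKM in KO at FGO, against 308.1 and 300.9 RPKM in WT, and it passed at each of the 4 stages, with -1.74 at nFGO and -0.45 at GO2 at the ends of the range. Hltf, a ubiquitin ligase of replication fork repair, fell by 0.57 ± 0.13 (adjusted p = 0.0048). Ercc6, counted above as well, was the third by size. The SNF2 genes that were higher were Ercc6, Smarcal1 and Chd7, and those that were lower were Atrx, Hltf, Shprh, Rad54b, Chd9 and Smarca2.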

How the data were processed

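The submitters' processing notes name the mm10 build and the tools DESeq (1.34.1), HISAT2 (2.1.0), Cuffnorm, Cufflinks (2.2.1), deepTools (3.0.2) and Trim Galore (0.4.5), with no role or order. The authors deposited 1 RPKM value per gene and library and, for each stage, a signal per group (the mean normalized count) with the log2 of the KO over WT ratio, per the file headers. Strand use and gene annotation are not given in the sources used here. RPKM did not resolve into whole reads (23.4% to 29.9% of low-value ratios were whole within 1%), so depth is unknown and no count test was run. Of 16975 gene IDs, 35 with conflicting lines were left out. The 8 ATAC-seq samples were not analysed here.

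The test took genes that reached 1 RPKM in 2 or more libraries and was run on log2(RPKM + 1) with limma 3.58.1 (R 4.3.3), 1 mean per group over all 16 libraries and a variance trend. P-values were adjusted by Benjamini-Hochberg, with a threshold of 0.05. Exact permutations and other values were computed in Python 3.11.15. In simulated data for KO-WT at FGO over 14557 genes, 26%, 74%, 92% and 96% of genes changed 1.5-, 2-, 3- and 4-fold were recovered. The changed genes, 50 per fold, were drawn from those with a mean of 5 RPKM or more. Their change was added on the log2(RPKM + 1) scale. The rates do not cover lower genes such as Rsf1, which averaged 4.51 RPKM in KO and 2.17 RPKM in WT.

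Named genes were all 10 members, the 3 called members of each list with the largest averaged KO-WT change, any called member of a list of 6 or fewer genes, and the 5 genes most like Smarca5. Further listed genes are named where a count needed it. The members and lists were chosen with earlier results of these data known. Alternatives were another pseudocount, filter, scaling, variance model, sample set, replicate block, and leaving out each library.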

Additional observations from a re-analysis of the deposited data

Results flagged for a closer look

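The KO effect on Baz1a differed between stages, at -1.171 on the log2 scale for FGO minus GO1 (adjusted p = 0.00842, limma), with both KO libraries below both WT libraries at FGO and overlapping genotypes at GO1. The KO effect on Baz2a also differed between stages, at 0.915 for GO2 minus GO1 (adjusted p = 0.0247), with KO above WT at GO2 and below WT at GO1 in all libraries. The Baz2a call was lost with a replicate block (adjusted p = 0.0762), with only the compared groups (adjusted p = 0.105) and with any of 6 libraries left out, and the authors' deposited table gave Baz2a -0.01 at GO1. The Baz1a call was lost with only the compared groups (adjusted p = 0.0817). The authors' deposited table gave Baz1a 0.19 at GO1 and -0.58 at FGO.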

How the results depend on the processing

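Of 26 calls for single genes, 14 held under every alternative run, and none reversed. For the authors' deposited counts only the direction was compared, and the exact permutation p was not adjusted. The size could therefore differ, as for Baz1a at FGO (-0.58 by counts, -1.21 by RPKM). The 14 were all 5 calls of Smarca5, those of Baz1a at FGO, averaged over the stages and from GO2 to FGO in each genotype, those of Chrac1 at FGO, averaged and from GO2 to FGO in WT, Rsf1 averaged, and Baz2a from GO2 to FGO in WT. With only the libraries of the groups compared, 1 member passed in place of 2 at GO2, 1 in place of 3 at nFGO, 1 in place of 2 for WT GO2-GO1, and 0 in place of 1 for KO FGO-nFGO and for both changes of the KO effect with stage. Over all genes this fit called 16 at GO1, against 965, 291 at GO2, against 1112, 1174 at nFGO, against 2354, 1072 at FGO, against 2596, 656 for WT GO2-GO1, against 1099, 53 for WT FGO-nFGO, 53 for KO GO2-GO1, against 1383, 84 for KO FGO-nFGO, against 616, 40 for the KO effect FGO minus GO1, against 507, and 15 for GO2 minus GO1, against 582. That last one gave 101 without the variance trend, and the average of GO1, GO2 and FGO only gave 3062, against 4810. WT GO2-GO1 gave 1 without the filter or without the variance trend, KO FGO-GO2 gave 1 in place of 2 with a pseudocount of 0.1 or no filter, KO FGO-nFGO gave 0 with quantile normalization or no variance trend, and KO GO2-GO1 gave 1 in place of 0 with at least 5 RPKM.

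With each library left out in turn, the members called ranged over 1 to 2 at GO1, 1 to 3 at GO2, 1 to 4 at nFGO, 3 to 4 at FGO, 4 to 6 averaged, 0 to 2 for WT GO2-GO1, 3 to 4 for WT FGO-GO2, 0 to 1 for WT FGO-nFGO, KO GO2-GO1 and KO FGO-nFGO, 1 to 2 for KO FGO-GO2, 1 to 2 for the KO effect FGO minus GO1 and 0 to 2 for GO2 minus GO1. The genes called over the whole table moved further: 231 to 2741 at GO1, 61 to 1676 at GO2, 960 to 2936 at nFGO, 1193 to 3206 at FGO, 13 (without WT GO2 replicate 1) to 2096 for WT GO2-GO1, 127 to 579 for WT FGO-nFGO, 306 to 1977 for KO GO2-GO1, 142 to 1042 for KO FGO-nFGO, 122 to 1475 for the KO effect FGO minus GO1 and 4 to 2402 for GO2 minus GO1. The lowest values came from leaving out a library of the groups compared, which leaves 1 library there, and the highest from leaving out a KO GO1 replicate. Averaged differences near 0 changed sign: Baz1b was -0.001019 with a pseudocount of 5 and ran from -0.0454 to 0.054, and Baz2a from -0.0106 to 0.0555. The causes were not tested.

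Replicate numbers did not pair the libraries (correlations of same-number deviations from -0.0187 to 0.0962). With a replicate block, 1 member passed in place of 2 at GO2, for WT GO2-GO1 and for KO FGO-GO2, 0 in place of 1 for the KO effect GO2 minus GO1, and 4 and 6 passed at nFGO and averaged. The block took the genes called for the KO effect FGO minus GO1 to 200, against 507 without it, for GO2 minus GO1 to 5, against 582, at GO1 to 596, against 965, and at GO2 to 555, against 1112. For comparisons within 1 genotype, the form of the block (1 term for the number) was chosen after seeing the data. The deposited mean counts gave the same direction as RPKM for every call at a stage. At 2 libraries per group, a 1.5-fold change would mostly be missed (26% recovered in simulated data for FGO). This rate is for genes with a mean of 5 RPKM or more, and lower genes were not simulated as changed.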
